A study of Mus musculus with 4 samples.

Results

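Described here are 31 genes of sterol and fatty acid synthesis in activated CD8+ T cells, out of 53465 genes in the table. They were taken by gene name from a fixed set: 7 enzymes of the mevalonate pathway, 11 enzymes that turn its product into cholesterol, 5 genes of sterol sensing and transfer, and 8 enzymes of fatty acid synthesis and desaturation. All 31 were on 1 row each and all 31 passed the filter on low counts, which left 13528 genes to test. Mouse splenic CD8+ T cells were isolated and cultured for 24 h with anti-CD3/CD28 beads, which stand in for the antigen and costimulatory signals that activate a T cell. By title, 2 libraries were wild type (labelled WT) and 2 lacked PP2Cm (labelled KO, PP2Cm-/- in the protocol), each described as a biological replicate. PP2Cm, encoded by Ppm1k, is the mitochondrial phosphatase that switches on the breakdown of branched-chain amino acids. How the allele was made, and the age and sex of the mice, are not stated in the labels. Nor do they say that replicates came from separate mice, so p values measure only the spread between these libraries, which may be technical.

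Dividing T cells build new membrane and draw sterols and fatty acids from synthesis as well as uptake. The SREBP transcription factors, encoded by Srebf1 and Srebf2, are held in the endoplasmic reticulum by SCAP and INSIG proteins while sterols are plentiful. When sterols fall, SCAP carries them to the Golgi for cleavage, and the released fragments bind sterol regulatory elements beside CCAAT boxes (bound by NF-Y) and GC boxes (bound by Sp1) in the promoters of the enzymes. SREBP2 is known mainly for the mevalonate and sterol enzymes, and the SREBP1c form, itself induced by liver X receptors, for the fatty acid enzymes.

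Promoters are shown for 5 members: Hmgcs1, Nsdhl and Insig1 for their low level in a single library, Hsd17b7 for its E-box, and Fasn as the main enzyme of fatty acid synthesis. RefSeq (GRCm38.p6) gave promoters, 250 bases before and 50 after a start site, for 24 of the 31 members. The motifs searched on both strands were TCACNCCAC (sterol regulatory element), CACGTG (E-box), CCAAT and GGGCGG (GC box), and CCAAT matches on opposite strands can overlap, as they do in Fasn. Capitals mark the matches. The stretches hold no exon annotated in GENCODE M21, so that those of Hsd17b7 and Insig1 end 37 and 51 bases before the RefSeq start site and the others at the base before it.
Hmgcs1, chr13:119690161-119690350, plus strand: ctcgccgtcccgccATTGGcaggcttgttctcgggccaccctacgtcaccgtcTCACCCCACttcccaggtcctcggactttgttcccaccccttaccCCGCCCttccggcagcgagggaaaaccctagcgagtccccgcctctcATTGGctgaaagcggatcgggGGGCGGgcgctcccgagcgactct
Nsdhl, chrX:72918412-72918520, plus strand: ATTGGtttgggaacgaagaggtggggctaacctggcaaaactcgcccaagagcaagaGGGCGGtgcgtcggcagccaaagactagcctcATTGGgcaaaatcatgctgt
Hsd17b7, chr1:169969242-169969395, minus strand: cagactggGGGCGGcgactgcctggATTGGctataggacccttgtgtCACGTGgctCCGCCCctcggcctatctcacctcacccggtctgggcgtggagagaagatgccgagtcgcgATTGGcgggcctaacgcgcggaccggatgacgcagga
Insig1, chr5:28071212-28071361, plus strand: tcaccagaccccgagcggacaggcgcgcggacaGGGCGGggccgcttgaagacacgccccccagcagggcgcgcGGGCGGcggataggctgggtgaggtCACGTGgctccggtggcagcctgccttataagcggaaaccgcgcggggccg
Fasn, chr11:120824548-120824697, minus strand: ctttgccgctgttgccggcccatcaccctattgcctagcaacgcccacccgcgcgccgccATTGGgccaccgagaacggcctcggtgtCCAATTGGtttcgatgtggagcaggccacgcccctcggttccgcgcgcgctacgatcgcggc

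In the whole windows of 300 bases, CCAAT stood in 19 of the 24 members, including 9 of 9 sterol enzymes and 5 of 6 mevalonate enzymes, against 41.1% of all 27025 genes with a promoter and 43.5% of the 9004 of them tested here. GGGCGG stood in 20 of 24, against 38.2% of all and 69.7% of tested genes. CACGTG stood in 5 (Dhcr7, Hsd17b7, Insig1, Sc5d and Scap), against 8.09% and 12.1%. TCACNCCAC stood in 1, Hmgcs1, against 1.44% and 1.32%. Over all 32851 promoters, each counted separately, the shares were 37.4% for CCAAT, 35.7% for GGGCGG, 7.15% for CACGTG and 1.24% for TCACNCCAC. These are matches of letters, not measured binding. Other forms of a motif and sites outside the windows were not searched, so a missing match does not mean that the element is absent.

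Library totals ran from 12967251 to 17316284 counts, and the deepest was labelled WT replicate 2. The titles and the genotype field of the samples go against their description codes, which name the opposite genotype, and groups here follow the titles. Ppm1k, the gene named by the knockout, had 102 and 94 counts under the WT label and 157 and 206 under the KO label (log2 fold change 0.97, adjusted p = 0.186 by edgeR). That order goes against the labels, although a count for a whole gene cannot tell which exons it came from. Directions between labels would turn if the codes named the genotype, and differences within a pair would not. The CD8 T cell markers Cd8a, Cd8b1, Cd3d, Cd3e, Cd3g and Cd2 were present throughout and summed to 1644 to 1939 counts per 1000000 (CPM), while no gene of 6 B cell or 6 myeloid markers passed 10.3 CPM in any library and the erythroid list summed to at most 2.53 CPM. The other lists, in the order WT 1, WT 2, KO 1 and KO 2, summed to 195, 160, 123 and 115 CPM for CD4 T cells, nearly all of it Ctla4, which activated CD8 T cells also express, and to 5.22, 6.53, 13.5 and 7.96 CPM without it. The NK list summed to 79.3 to 98.2 CPM, of which Eomes, also a CD8 T cell gene, made up all but 2.00 to 5.42 CPM, and the dendritic list to 4.59 to 7.96 CPM. The stromal and endothelial list was nearly all Pecam1, at 37.0 and 30.7 CPM under the WT label and 18.0 and 18.6 CPM under the KO label, while Col3a1 and Cdh5, like the erythroid marker Alas2, were at 0 counts in all 4 libraries. The part of these markers in the differences between labels was not tested. In bulk RNA, fewer cells of a type and less RNA per cell cannot be told apart.

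The pathways were well expressed. By deposited FPKM, a level per gene length averaged over the 4 libraries, the stearoyl-CoA desaturase gene Scd2 stood highest at 208. Srebf2 (103 FPKM), Fasn (95.8 FPKM) and Acly (86.7 FPKM) followed, and their ranges over libraries overlapped (88.8 to 113, 73.5 to 112 and 78.6 to 92.1 FPKM). Idi1 at 81.1, Cyp51 at 71.2 and Hmgcs1 at 58.2 FPKM led the mevalonate and sterol enzymes. Srebf1, at 13.9 FPKM, lay under Srebf2 in every library. Lowest was Tm7sf2, a sterol reductase, at 1.17 FPKM.

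**Figure D1:**
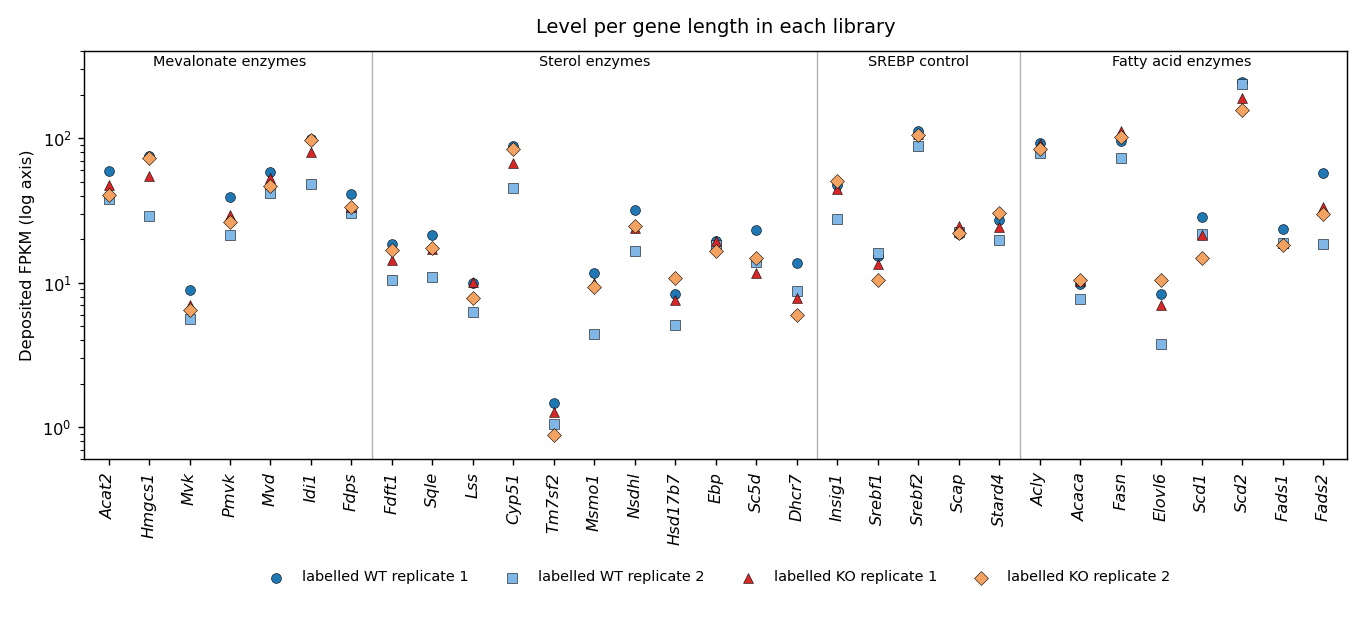
Deposited FPKM (log axis) of each of the 31 genes in each library, grouped by role, with 1 symbol per library and no averaging. Scd2 lies above all others at 158 to 246 FPKM and Tm7sf2 below all others at 0.888 to 1.48 FPKM.

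The first question was whether any of these genes differed between the labels. None of the 31 passed an adjusted p of 0.05 over all genes tested by edgeR's quasi-likelihood test, where 0.207% of all genes tested did (28 of 13528), and DESeq2 also called 0 members, against 1.87% of the genes edgeR tested. The smallest adjusted p was 0.247, for Scd2. At an unadjusted p under 0.05 there were 3, all lower in the libraries labelled KO (Scd2, Dhcr7 and Srebf1), or 9.68%, against 12.9% of all genes tested (7.23% lower and 5.7% higher). Log2 fold changes, labelled KO minus labelled WT, were negative in 14 members and positive in 17, where 51.9% and 48.1% of all genes tested were, with a median of 0.03 and a range of −0.71 to 0.50, where the median over all genes tested was −0.01. Both libraries labelled KO lay below both labelled WT in 5 members, or 16.1%, where 23.3% of all genes tested did, and above both in 2, or 6.45%, where 21.5% did. The share of genes that the labels separated was thus smaller among the members, 22.6%, than among all genes tested, 44.9%. With 2 libraries against 2, an exact two-sided permutation test of a single gene cannot go below p = 0.333.

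**Figure D2:**
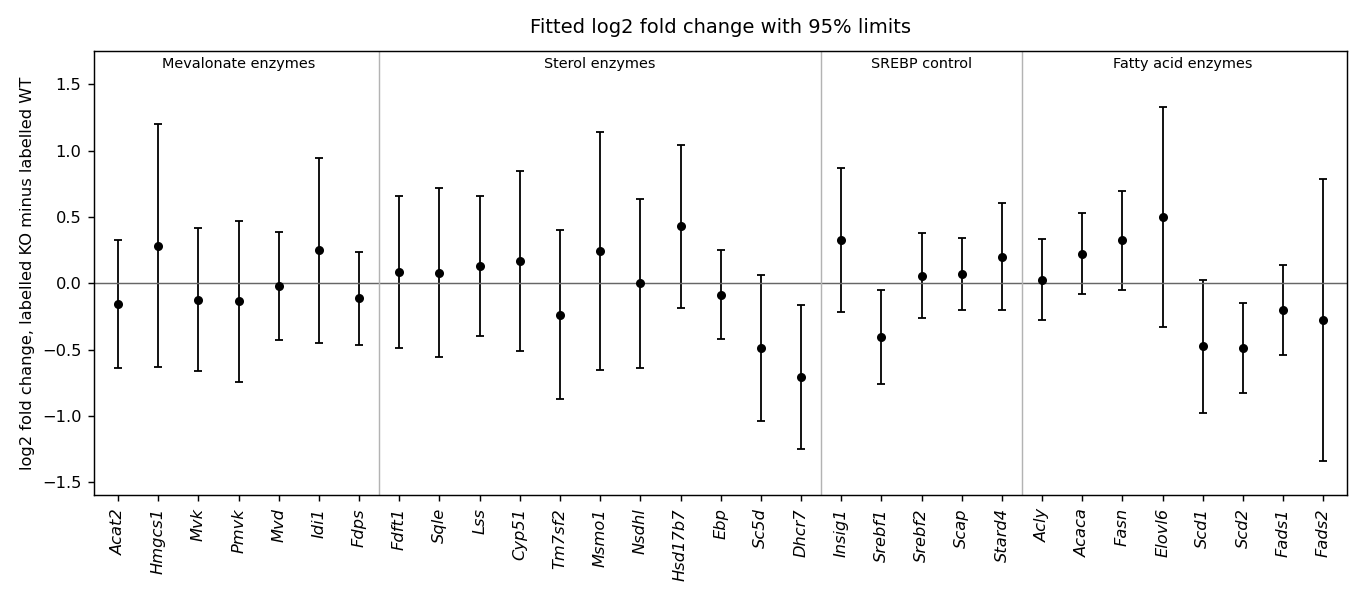
Fitted log2 fold change of each gene, labelled KO minus labelled WT, with 95% limits from edgeR's quasi-likelihood fit, grouped by role. The limits of 28 genes include 0, and the 3 that do not (Dhcr7, Scd2 and Srebf1) did not pass the adjusted threshold.

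The larger difference lay inside the pair labelled WT. Replicate 2 was lower than replicate 1 in 29 of the 31 members, where 50.3% of all genes tested were, and at least 1.5-fold lower in 17, where 7.41% were. It was at least 1.5-fold higher in 0 members, where 6.72% of all genes tested were. In 27 members the difference was beyond the 95% exact binomial interval for counting error, where 21.8% of all genes tested were lower in that sense. The 2 exceptions to the direction were Srebf1 and Scap, and of these Srebf1 was higher beyond counting error, where 23.4% of all genes tested were. The median fold, replicate 1 over replicate 2, was 1.63 for the sterol enzymes, 1.56 for the mevalonate enzymes, 1.25 for the fatty acid enzymes and 1.24 for the regulators, and 1.00 over all genes tested. Replicate 2 was the lowest of the 4 libraries in 22 members, where 26.0% of all genes tested had it lowest, and replicate 1 the highest in 20, where 26.1% did. Both held in 14 members, where 7.02% of all genes tested showed that order, and in these the libraries labelled KO lay between them. This comparison is of 2 libraries of the same label and has no test. Labelled WT replicate 2 was also the deepest library, its myeloid markers summed to 10.6 against 4.84 CPM in replicate 1 and its CD8 T cell markers to 1748 against 1939 CPM, and their part in the result was not tested.

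**Figure D3:**
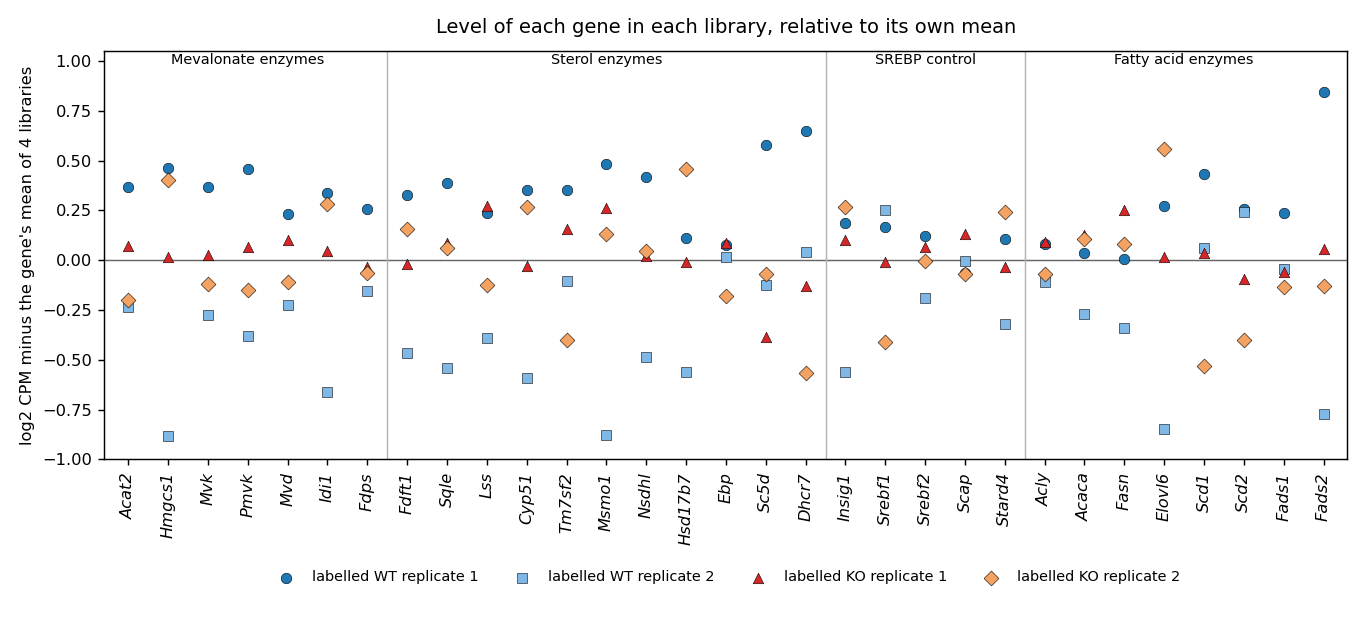
Log2 CPM of each gene in each library minus the gene's mean over the 4 libraries, grouped by role, with 1 symbol per library. Labelled WT replicate 2 is the lowest symbol in 22 of 31 genes and labelled WT replicate 1 the highest in 20. Both hold in 14 genes, where the libraries labelled KO lie between them.

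Against the 10434 tested genes with a mean of at least 5 CPM, 17 members were among the 522 genes (the lowest 5%) with the smallest ratio of labelled WT replicate 2 to replicate 1, and 22 were among the lowest 10%. Fads2, Msmo1, Hmgcs1 and Elovl6 were among the 104 genes of the lowest 1%. Fads2, a desaturase, and Elovl6, an elongase, belong to the fatty acid arm. Msmo1 is an oxygenase of the sterol arm, and Hmgcs1 is the synthase of the mevalonate arm that makes HMG-CoA.

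**Figure D4:**
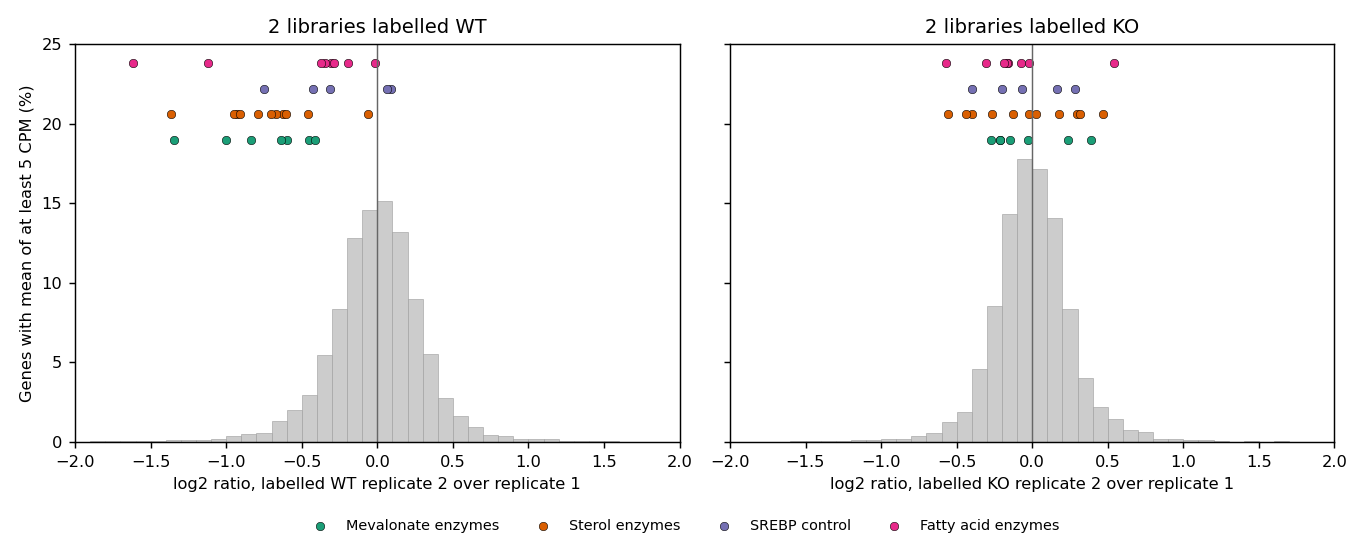
Histograms of the log2 ratio of replicate 2 to replicate 1 over tested genes with a mean of at least 5 CPM, for the pair labelled WT (left) and the pair labelled KO (right), with the 31 genes as points above, coloured by role, at arbitrary heights. The points lie mostly left of 0 in the pair labelled WT and on both sides of 0 in the pair labelled KO.

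Among the mevalonate enzymes, which make isopentenyl and farnesyl diphosphate from acetyl-CoA, Hmgcs1 had 6599 and 3391 counts under the WT label and 4948 and 7033 under the KO label. Its levels were 507 and 199.6 CPM against 372 and 487 CPM, so the groups overlapped, and the WT libraries alone spanned a fold of 2.54 (95% counting interval 2.44 to 2.65). Hmgcs1 is the member whose promoter holds the TCACCCCAC match shown above. Idi1, which isomerizes isopentenyl diphosphate, stood at 474 and 237 CPM under the WT label and 387 and 456 CPM under the KO label, a fold of 2.00 within the WT pair. The kinase genes Mvk and Pmvk, the decarboxylase gene Mvd, the thiolase gene Acat2 and the farnesyl diphosphate synthase gene Fdps were 1.56-, 1.79-, 1.37-, 1.52- and 1.33-fold higher in labelled WT replicate 1 than in replicate 2. All 7 enzymes had labelled WT replicate 1 highest and replicate 2 lowest. Their log2 fold changes between labels ran from −0.15 to 0.28, with adjusted p values of 0.779 to 0.973 by edgeR. The 7 genes summed to 1699 and 927 CPM under the WT label and 1349 and 1470 CPM under the KO label.

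Of the sterol enzymes, Msmo1, which oxidizes methyl groups of the sterol ring, showed the widest fold within the WT pair. It stood at 115 and 44.7 CPM under the WT label and 98.6 and 90.2 CPM under the KO label, so that 3 libraries lay close together and labelled WT replicate 2 lay apart, 2.57-fold under replicate 1 (95% counting interval 2.36 to 2.81). Cyp51, the lanosterol demethylase, stood at 477 and 248 CPM against 365 and 449 CPM. Sqle, the squalene epoxidase that limits flux into sterols, stood at 183 and 96.0 CPM against 148 and 146 CPM. Nsdhl, which acts beside Msmo1, stood at 95.4 and 50.9 CPM against 72.5 and 73.7 CPM, with a log2 fold change between labels of 0.00. For each of these 4 genes the libraries labelled KO lay between those labelled WT. Fdft1 (squalene synthase) and Lss (lanosterol synthase) were 1.73- and 1.54-fold higher in labelled WT replicate 1 than in replicate 2. Tm7sf2, which shares exons with another gene, had means of 9.09 ± 2.03 CPM under the WT label and 7.70 ± 2.08 CPM under the KO label (SD, n = 2 each). Ebp, a sterol isomerase, was the enzyme of this arm with the smallest such fold, 1.04, and its counting interval of 0.955 to 1.14 includes 1. The log2 fold changes between labels of these 8 enzymes ran from −0.24 to 0.24.

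Within the sterol arm, the last steps of cholesterol synthesis had the most negative values between labels. Dhcr7, the reductase that makes cholesterol, had 1880 and 1611 counts under the WT label and 1120 and 898 under the KO label. Its levels were 144 and 94.8 CPM against 84.2 and 62.2 CPM, without overlap between groups. The means were 120 ± 35.1 and 73.2 ± 15.6 CPM (SD, n = 2 each), with a log2 fold change of −0.71 (SE 0.23, adjusted p = 0.279 by edgeR), the most negative of the 31. Sc5d, the desaturase that acts just before it, stood at 142 and 87.5 CPM under the WT label and 72.9 and 90.7 CPM under the KO label. Its groups overlapped by a narrow margin, and its log2 fold change was −0.49 (SE 0.23, adjusted p = 0.443 by edgeR). Hsd17b7, which acts in removal of the methyl groups, was the sterol enzyme with the highest fold change, 0.43 (SE 0.26, adjusted p = 0.543 by edgeR), at 46.0 and 28.8 CPM against 42.3 and 58.4 CPM, with overlap. Leaving out each library in turn gave −0.98 to −0.37 for Dhcr7, −0.80 to −0.09 for Sc5d (both smallest in size without labelled WT replicate 1) and 0.13 to 0.81 for Hsd17b7 (smallest without labelled WT replicate 2). Among the 9 enzymes of this arm with a promoter, a CACGTG match stood in 3, Hsd17b7, Dhcr7 and Sc5d. Dhcr7 has several promoters, and a single one of them holds the match. Any link of the match to these values was not tested.

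Among the regulators, Srebf1 was the member that went against the pattern of the WT pair beyond counting error. It had 1839 and 2554 counts under the WT label and 1664 and 1371 under the KO label, or 141 and 150 CPM against 125 and 94.9 CPM. Both libraries labelled KO lay below both labelled WT, with a log2 fold change of −0.41 (SE 0.15, adjusted p = 0.327 by edgeR), or −0.22 without labelled KO replicate 2. Srebf2, which encodes the factor of the sterol arm, stood at 560 and 452 CPM under the WT label and 539 and 514 CPM under the KO label, with a log2 fold change of 0.06 (95% limits −0.26 and 0.38). Scap, the escort of both factors, stood at 194 and 202 CPM against 222 and 193 CPM. Insig1, which retains SCAP in the endoplasmic reticulum and is itself a target of SREBP, stood at 163 and 97.1 CPM under the WT label and 154 and 172 CPM under the KO label. Labelled WT replicate 2 thus lay apart from the other 3 libraries for Insig1, 1.68-fold under replicate 1, while Scap showed no such gap. Stard4, a sterol transfer protein, stood at 184 and 137 CPM against 167 and 202 CPM.

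In the fatty acid arm none of the 8 genes passed the test. In 5 of them the groups did not overlap, where 44.9% of all genes tested did not. Fasn and Acaca lay above and Scd2, Scd1 and Fads1 below under the KO label, where 21.5% and 23.3% of all genes tested did. Fasn, the fatty acid synthase, had 17284 and 17710 counts under the WT label and 20878 and 20174 under the KO label, or 1328 and 1043 CPM against 1570 and 1396 CPM. Its libraries labelled KO were both above those labelled WT, and the log2 fold change was 0.32 (SE 0.16, adjusted p = 0.452 by edgeR). Acaca, which makes the malonyl-CoA that Fasn uses, lay above in the same way at 199 and 161 CPM against 211 and 208 CPM, with a log2 fold change of 0.22 (SE 0.13, adjusted p = 0.527 by edgeR). These 3 genes below encode desaturases, which place double bonds in fatty acids. Scd2 had 17362 and 22414 counts under the WT label and 13895 and 12215 under the KO label, or 1334 and 1319 CPM against 1045 and 846 CPM. This is the member whose WT libraries differed least, 1.01-fold, and its log2 fold change was −0.49 (SE 0.14, 95% limits −0.83 and −0.15, adjusted p = 0.247 by edgeR). Its near relative Scd1 stood at 138 and 106 CPM against 105 and 70.7 CPM, with a log2 fold change of −0.48 (SE 0.21, adjusted p = 0.409 by edgeR). Fads1, a polyunsaturated fatty acid desaturase, had both libraries labelled KO below both labelled WT by a narrow margin, at 80.4 and 66.0 CPM against 65.3 and 62.2 CPM, and a log2 fold change of −0.20 (adjusted p = 0.61 by edgeR). These values were smaller in size without a single library: 0.16 for Fasn and 0.08 for Acaca without labelled WT replicate 2, −0.21 for Scd1 without labelled KO replicate 2, and −0.05 for Fads1 without labelled WT replicate 1. Scd2 ran from −0.65 to −0.34.

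Of the other members of that arm, Fads2 and Elovl6 differed widely within the WT pair and Acly did not. Fads2, which acts beside Fads1, stood at 86.8 and 28.3 CPM under the WT label and 50.4 and 44.3 CPM under the KO label, and its 3.07-fold difference within the WT pair (95% counting interval 2.75 to 3.42) was the widest of the 31. Elovl6, which lengthens palmitate, stood at 92.4 and 42.5 CPM against 77.5 and 113 CPM, 2.17-fold within the WT pair. Its log2 fold change of 0.50 (SE 0.35, adjusted p = 0.603 by edgeR) was the highest of the 31 and lay within that spread. Acly, which makes cytosolic acetyl-CoA from citrate, stood at 752 and 657 CPM against 757 and 677 CPM. Its replicate 1 was 1.14-fold above replicate 2 within the WT pair and 1.12-fold within the KO pair.

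The libraries labelled KO differed from each other less, and in both directions, more often with replicate 2 lower. In no member did they differ by 1.5-fold, where in all genes tested replicate 2 was that much lower in 4.9% and that much higher in 6.39%. Replicate 2 was lower than replicate 1 in 21 members, where 49.5% of all genes tested were. Beyond counting error, replicate 2 was lower than replicate 1 in 16 members and higher in 9, where the shares of all genes tested were 19.2% and 18.4%. The 9 were Hmgcs1, Idi1, Fdft1, Cyp51, Hsd17b7, Sc5d, Insig1, Stard4 and Elovl6. The 16 included Scd1, Scd2, Srebf1, Dhcr7, Lss and Acat2. Elovl6 was 1.45-fold higher in labelled KO replicate 2 (95% counting interval 1.34 to 1.57), and Scd1 stood at 0.674 of its level in replicate 1 (95% counting interval 0.622 to 0.732).

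The direction of most members depended on which library labelled WT was used. Without labelled WT replicate 1, 24 members had positive and 7 negative log2 fold changes, with a median of 0.35, where 49.6% of all genes were positive. Without labelled WT replicate 2, 25 were negative and 6 positive, with a median of −0.26, where 50.1% of all genes were negative. The first fit called 5 members higher in the libraries labelled KO, against 0.907% of all genes: Hmgcs1 (log2 fold change 1.11, adjusted p = 0.0119), Msmo1 (1.08, adjusted p = 0.00776), Idi1 (0.84, adjusted p = 0.0247), Insig1 (0.75, adjusted p = 0.0303) and Elovl6 (1.17, adjusted p = 0.0236). The second called 3 members lower, against 1.2% of all genes: Dhcr7 (−0.98, adjusted p = 0.021), Sc5d (−0.80, adjusted p = 0.0356) and Fads2 (−0.87, adjusted p = 0.0256). No member was called in both, and 18 of the 31 had opposite signs in the 2 fits, among them all 7 mevalonate enzymes. Of the 8 called, these were Hmgcs1, Msmo1, Idi1, Insig1 and Fads2. The share of all genes with opposite signs in the 2 fits was not computed, so the 18 have no background to set them against. Insig1 is among the 18 with a value of −9.28e-06 without labelled WT replicate 2. Scd2 had nearly the same value in both fits, −0.48 and −0.50. Each such fit assumes that the lone library labelled WT varies like the pair labelled KO. Without labelled KO replicate 1 or 2 the median was −0.06 or 0.05, and 0 members were called, where 0.42% and 0.0572% of all genes were.

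**Figure D5:**
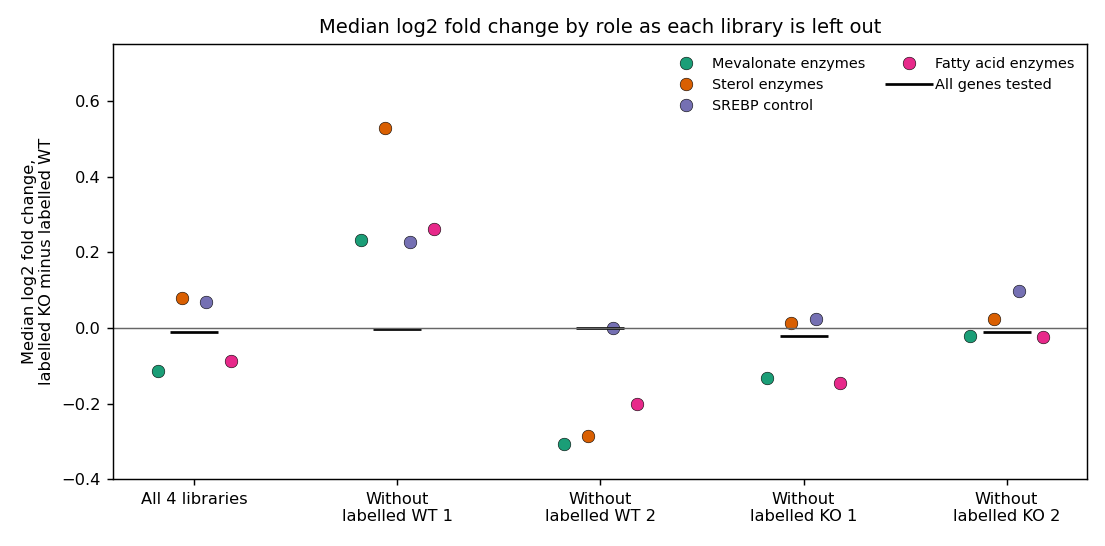
Median log2 fold change, labelled KO minus labelled WT, of each role group (coloured points) and of all genes tested (black bars) with all 4 libraries and with each left out in turn. The sterol enzymes stand at 0.53 without labelled WT replicate 1 and at −0.29 without labelled WT replicate 2, while all genes stay near 0.

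The 62 related genes of the same pathways were listed by role, with earlier results of these data known. Of these, 61 were in the table under the name used and 56 were tested. None passed the adjusted threshold by edgeR, and 7 had an unadjusted p under 0.05, 4 lower and 3 higher in the libraries labelled KO, or 12.5%, against 12.9% of all genes tested. DESeq2 called 1, Abcg1. Their median log2 fold change was 0.01, with 28 negative and 28 positive. Within the pair labelled WT, 28 were lower in replicate 2 and the median fold was 1.01, so the list as a whole did not share the difference of the members. Ggps1 and Aacs are named after their values were seen. Ggps1, which makes the geranylgeranyl diphosphate of prenylated proteins, was the 1 related gene at least 1.5-fold lower in labelled WT replicate 2, at 27.7 and 16.1 CPM against 28.0 and 28.1 CPM in the libraries labelled KO. Aacs, which activates acetoacetate for lipid synthesis, was 1.39-fold lower there.

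The 2 most negative values among the related genes belonged to sterol efflux. Abcg1, a transporter that exports cholesterol, had 348 and 771 counts under the WT label and 240 and 114 under the KO label, or 26.7 and 45.4 CPM against 18.0 and 7.89 CPM. Both libraries labelled KO lay below both labelled WT, 2.79-fold on the fitted scale, with a log2 fold change of −1.48 (SE 0.41, adjusted p = 0.229 by edgeR). Its relative Abca1 had 28 and 75 counts against 18 and 14, with a log2 fold change of −1.51 (SE 0.46, adjusted p = 0.257 by edgeR). Lrp8, a lipoprotein receptor, lay the other way at 18.7 and 24.3 CPM against 41.0 and 30.5 CPM, with a log2 fold change of 0.73 (adjusted p = 0.245 by edgeR). Npc2, which moves cholesterol out of lysosomes, stood at 384 and 326 CPM against 289 and 249 CPM (log2 fold change −0.40, adjusted p = 0.292 by edgeR). Acss2, which makes acetyl-CoA from acetate, had means of 35.7 ± 0.504 CPM under the WT label and 23.6 ± 5.15 CPM under the KO label (SD, n = 2 each, log2 fold change −0.59, adjusted p = 0.276 by edgeR). Acsl4, which activates long polyunsaturated fatty acids, stood at 132 and 125 CPM against 157 and 173 CPM (log2 fold change 0.36, adjusted p = 0.259 by edgeR). In all 6 genes the groups did not overlap, as in 29 of the 56 related genes, where 44.9% of all genes tested did not. With each library left out in turn, the log2 fold change ran from −2.19 to −0.99 for Abcg1 and from −1.92 to −0.89 for Abca1.

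Some counts are less certain than others. Exons were compared in GENCODE M21 (GRCm38), where 26 of the 31 members have the same coordinates as deposited, so it may not be the annotation used in counting. In it, 4 members share exons with another gene on the same strand. Tm7sf2, with 479 counts in all, does so with Vps51, which had 2752, and Fdps with Gm43738, while the microRNA genes inside Scd2 and Srebf1 had 4 counts each. On the opposite strand 8 members share exons with another gene, among them Cyp51 with Akap9, Fdft1 with Ctsb and Srebf1 with Rai1, and no source used here says whether strand was used in counting. Of the close copies, Acat3 had 272 to 285 counts per library beside 2014 to 2690 for Acat2, and Scd3 and Scd4 had at most 6 and 19 counts in any library beside 1022 or more for Scd1.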

How the data were processed

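Per the file headers, the authors deposited counts per gene, which are whole numbers with no normalization, and FPKM, a level scaled for gene length and for a library of 1000000 counts (the gene length implied by count and FPKM was the same in all libraries to within 0.00385%). The submitters' processing notes name kallisto and GRCm38 with no version or role. Counting rules, strand use and filters are not stated in the labels or headers. Columns were joined to samples through their description codes, and 8 other columns of values were not used.

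The main test was edgeR's quasi-likelihood test (version 4.0.16, in R 4.3.3), after filterByExpr and TMM scaling, over all 4 libraries, two-sided, with Benjamini-Hochberg adjustment over all 13528 genes tested and a threshold of 0.05. The common biological coefficient of variation was 15.9%. The code was tested on simulated data with 100 genes changed 2-fold and 100 changed 4-fold. It called 75% and 100% of them at the threshold of 0.05, and 11.6% of all its calls were false, more than that threshold aims for. The changed genes were drawn from genes with a mean above 5 CPM, with each gene's fitted dispersion. Members differed more within the WT pair than all genes tested (median absolute log2 ratio 0.61 against 0.21), so these shares may not hold for them. SEs were taken from the F statistic and the fold change, CPM are scaled by TMM, and counting intervals are exact (Clopper-Pearson), at 95%, for counting error alone. Alternatives were RLE size factors, DESeq2 1.42.0, 2 other filters, limma 3.58.1 on log2 of the deposited FPKM plus a pseudocount, a replicate block and leaving out each library. The members and gene lists were chosen with earlier results of these data known. Genes were named by a rule: full statistics for the 12 members and 6 related genes with the smallest p and for Ppm1k, levels or folds for other members, and counts for close copies.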

Additional observations from a re-analysis of the deposited data

How the results depend on the processing

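No member was called with RLE size factors, DESeq2, either other filter, either FPKM fit or the replicate block, and the median log2 fold change of the 31 members was 0.02 to 0.08 in these 7 alternatives. Leaving out each library in turn gave 0 to 5 members called and a median of −0.26 to 0.35, 8 to 304 genes called in all, and 0 to 2 related genes called. The number of genes called was 28 in the reported fit, 253 by DESeq2 (which also called 1 related gene), 146 with no filter on low counts, 51 with a filter of 1 CPM in 2 libraries, and 4 with limma on both log2(FPKM + 1) and log2(FPKM + 0.1). The cause of these shifts was not tested. With the replicate number as a block 123 genes and 0 members were called. The numbers share no stated origin. Across genes, the difference of replicate 2 from replicate 1 was only weakly and negatively correlated between the labels (r = −0.168 over 13528 genes, which are not independent). The calls split into 14 higher and 14 lower in the reported fit, 84 and 169 by DESeq2, 45 and 101 with no filter and 46 and 77 with the block. A crossed pairing, chosen after seeing the data, called 12 genes, 0 members and 0 related genes. Of the 31 members, 11 changed sign without labelled WT replicate 2, 7 without labelled WT replicate 1, 3 and 4 without labelled KO replicate 1 and 2, 1 in each FPKM fit (Mvd) and 1 with no filter (Nsdhl), and 0 with RLE size factors, DESeq2, the 1 CPM filter or the block. Among the 19 genes chosen for their small p or as the target, 1 of 207 values changed sign, for Insig1, which ran from −9.28e-06 (without labelled WT replicate 2) to 0.75 (without labelled WT replicate 1). A further 9 values passed the threshold only under an alternative, and none of the 19 was called in the reported fit. With 2 libraries per label, the spread within the pair labelled WT limits what can be detected between labels.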
